A study of Xenopus tropicalis with 31 samples.

Results

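The 5 genes described here, gata4, foxa1, hhex, gsc and otx2, encode transcription factors of the endoderm and of the Spemann organizer. They were chosen by symbol from 28858 genes of the RefSeq annotation of the Xenopus tropicalis assembly UCB_Xtro_10.0, and every peak or region that shared at least 1 base with a gene's bounds extended by 20 kb on each side was taken. The windows held 165 regions of 16 lists, of which 139 were peaks of 12 ChIP-seq lists and 26 were regions of 4 histone mark lists. On this assembly gata4 lies at chr5:150613881-150680058, foxa1 at chr8:109057256-109061421, hhex at chr7:25591485-25602685, gsc at chr8:88446481-88449211 and otx2 at chr8:104113601-104120481. The gata4 window, at 106.2 kb, was the longest of the 5 and also reaches neil2. The foxa1 window reaches ttc6 and the noncoding gene LOC116407081, and the other windows held no second gene.

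The study asked how the maternal factors Foxi2 and Sox3 prepare enhancers of the ectoderm, and chromatin was immunoprecipitated from X. tropicalis embryos. Foxi2 and Sox3 were profiled in whole wild-type embryos of stages 8, 9 and 10.5, with 2 libraries for each factor and stage. Ep300, a histone acetyltransferase that sits at active and primed cis-regulatory modules (CRMs), was profiled in dissected stage 10.5 ectoderm and endoderm, first with 1 wild-type library for each tissue and then with 2 wild-type and 2 FS morphant libraries for each tissue. H3K27ac (1 library per tissue) and H3K27me3 (2 per tissue) were mapped in wild-type ectoderm and endoderm of the same stage. FS morphants had received translation-blocking morpholinos against both Foxi2 and Sox3 on the animal side of the early embryo, and no list from embryos with a control morpholino was analysed here. The factor lists come from whole embryos, so a Foxi2 or Sox3 peak is not placed in a germ layer. Each condition is represented by 1 list. Where 2 libraries were made, the peak lists are read as merged from both. How the 2 H3K27me3 libraries of a tissue entered their list is not stated in the methods. The first Ep300 and the H3K27ac lists rest on 1 library per tissue. Values below therefore carry no replicate error, and no test between conditions was made. In dissected tissue, a site used by fewer cells and a site with less signal per cell cannot be told apart.

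Foxi2 is a forkhead factor and Sox3 a SoxB1 factor, and both are loaded into the egg and enriched in the animal cells that form ectoderm. Gata4 (a zinc finger factor), Foxa1 (a forkhead pioneer factor) and Hhex (a homeobox repressor of the anterior endoderm) belong to the network that patterns the endoderm and its organs, whereas Gsc (a homeobox repressor) and Otx2 (a homeobox factor of the head organizer and later of the anterior neural plate) act in the organizer. H3K27ac marks active CRMs, and H3K27me3 is deposited by Polycomb complexes at developmental genes that are silent or held back. Because the dissected endoderm is vegetal tissue and gsc and otx2 are used in dorsal cells next to it, the labelled tissues were first checked against marker genes.

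The tissue labels were read against marker genes by the number of Ep300 peaks within 20 kb. In the first experiment all 8 ectoderm markers had more ectoderm than endoderm peaks, and 6 of 7 endoderm markers had more endoderm peaks. In the second experiment these counts were 7 of 8 and 7 of 7, the exception being tfap2a with 2 ectoderm and 3 endoderm peaks. The windows of the endoderm markers sox17a and sox17b.1 overlap, so they share some peaks. Of 5 mesoderm markers, 4 in the first and 5 in the second experiment had more endoderm peaks, and all 5 had an endoderm peak in both. An ectoderm peak lay near 3 of the 5 in the first and 4 in the second experiment, and the endoderm lists are the longer ones (11690 against 5840 peaks in the first, 11597 against 5552 in the second). Whether mesodermal cells contributed to the endoderm peaks near gsc and otx2 was not tested.

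The members' windows filled unevenly across lists. Of the 139 peaks, 64 touched the gene bounds, 55 lay on the higher-coordinate side and 20 on the lower-coordinate side. Distances below are given from the gene's lower-coordinate bound, because strand was not given in the table used here. Strength is given as fold enrichment of ChIP over input and as the −log10 p of the peak, both by the peak caller, and as the rank of −log10 p in the whole list.

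**Figure D1:**
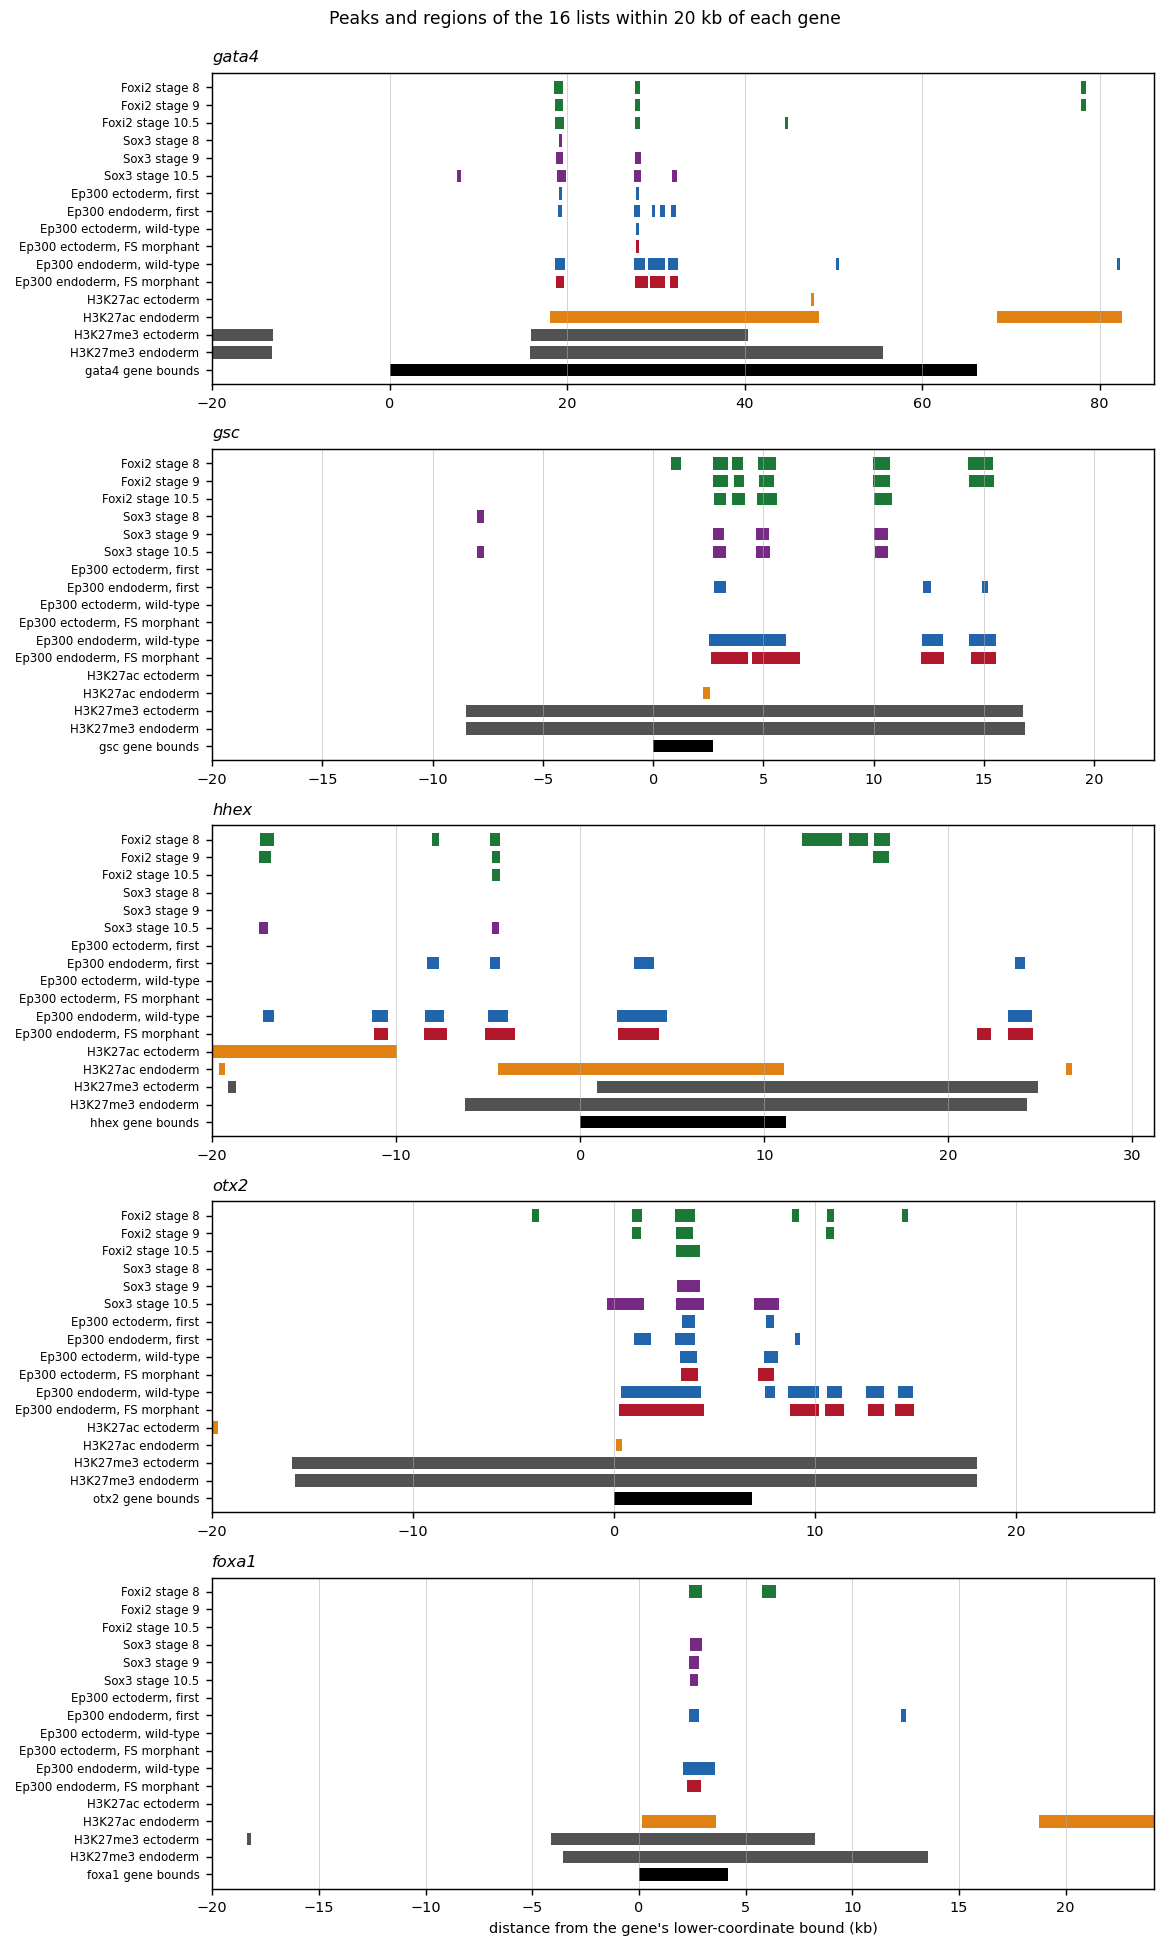
Peaks and regions of the 16 lists in the 5 windows, 1 row per list; the x axis is the distance in kb from the gene's lower-coordinate bound, boxes are peaks or regions to scale apart from a minimum drawn width, and black bars are the gene bounds. Ectoderm Ep300 boxes appear at gata4 and otx2 alone, endoderm Ep300 boxes at all 5 genes, and a long H3K27me3 box in both tissues at all 5 genes.

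Foxi2 peaks lay near all 5 genes at stage 8, and their number was lower at each later stage. Stage 8 had 23, stage 9 had 14 and stage 10.5 had 9. All 5 genes had a stage 8 peak, against 36.7% of 21749 protein-coding genes on the 10 chromosomes, and 4 of 5 had one at stage 9 (background 23.4%) and at stage 10.5 (background 20.6%). The whole lists also shortened, from 13158 through 6668 to 6039 peaks, so that the windows held 1.75, 2.10 and 1.49 of every 1000 peaks. Of the 23 stage 8 peaks, 8 overlapped a stage 10.5 peak, a share of which the whole stage 8 list gives 26.5%.

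Sox3 went the other way in number, which came to 3 at stage 8, 7 at stage 9 and 14 by stage 10.5. A stage 8 peak was found at 3 of 5 genes (gata4, gsc and foxa1; background 22.9%), a stage 9 peak at 4 of 5 (background 16.7%) and a stage 10.5 peak at all 5 (background 43.8%). The stage 10.5 list is by far the longest of the Sox3 lists, with 14648 peaks against 5827 at stage 8 and 4401 at stage 9. Per 1000 peaks the windows held 0.515, 1.59 and 0.956.

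At gata4, a pair of sites inside the gene bounds carried most of the factor signal. The first, near 18.6 kb, was a Foxi2 peak at all 3 stages, with fold enrichments of 31.3, 37.3 and 35.2. Sox3 was called there at all 3 stages too, at 25.3, 41.2 and 39.9. The stage 10.5 Sox3 peak, chr5:150632738-150633722, ranked 66 of 14648. At the second site, near 27.6 kb, Foxi2 gave 18.7 at stage 8, 19.7 at stage 9 and 43.3 at stage 10.5, the highest fold of any Foxi2 peak in the 5 windows. Sox3 was not called there at stage 8 and gave 24.9 at stage 9 and 38.8 at stage 10.5. A Foxi2 peak at 77.9 kb was called at stages 8 and 9 (14.95 and 20.3) and one at 44.5 kb at stage 10.5 alone (22.4). Further Sox3 peaks at 7.58 kb (8.98) and 31.8 kb (8.34) were called at stage 10.5 alone and stood in the weaker part of their list.

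At foxa1, Foxi2 was seen at stage 8 alone, with weak peaks at 2.35 kb (fold 9.58) and 5.78 kb (fold 8.22) that ranked 11880 and 12151 of 13158. Sox3 occupied the site at 2.3 kb at all 3 stages, with folds of 25.2, 20.1 and 10.2 at stages 8, 9 and 10.5. The −log10 p of these peaks was 68.7, 167 and 70.8, so its order over the stages was not that of the fold. This was the 1 member with Sox3 at every stage and no Foxi2 peak at stage 9 or 10.5.

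At hhex, Foxi2 peaks were spread on both sides of the gene. The strongest stage 8 peak, at 15.96 kb (fold 31.3, rank 894), had a stage 9 partner of 26.0 and none at stage 10.5. Next to it, stage 8 peaks at 12.03 kb (24.8) and 14.6 kb (27.1) had no partner at later stages. A site at −17.4 kb was called at stages 8 and 9 (14.2 and 14.4), and one at −8.07 kb at stage 8 alone (10.3). The site called at all 3 stages lay at −4.88 kb, with folds of 25.4, 27.9 and 31.5. By −log10 p it stood in the top 13.8%, 32.8% and 35.9% of the 3 lists, so its place did not rise with its fold. Sox3 was called near hhex at stage 10.5 alone, at −17.4 kb (7.89) and −4.79 kb (8.16), and its peaks ranked 10758 and 12935 of 14648.

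At gsc, 4 of 6 Foxi2 sites were called at all 3 stages. The site just above the gene, near 2.7 kb, gave folds of 27.1, 25.9 and 27.6. The next, at 3.6 kb, gave 30.0, 29.7 and 24.2. The site at 4.7 kb gave 17.6, 13.8 and 31.5. At 10 kb the values were 27.1, 25.7 and 18.0. A site at 14.3 kb was called at stages 8 and 9 (24.4 and 20.6), and one inside the gene, at 0.8 kb, at stage 8 alone (13.2). Sox3 was called at 3 of these sites at stages 9 and 10.5, with 31.8 and 27.03 at 2.7 kb, 17.1 and 27.7 at 4.7 kb, and 16.2 and 17.2 at 10 kb. The single stage 8 Sox3 peak, at −8.01 kb (13.6), had no Foxi2 partner and was called again at stage 10.5 (9.00).

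At otx2, 1 Foxi2 site of 6 was called at all 3 stages. It lies inside the gene near 3 kb and gave folds of 12.5, 24.3 and 34.9 at stages 8, 9 and 10.5. Sox3 was called at the same place at stage 9 (36.6) and stage 10.5 (38.6), where chr8:104116706-104118058 ranked 45 of 14648, the highest Sox3 rank in the 5 windows. The strongest stage 8 Foxi2 peak of the window was another, at 0.91 kb (30.4), with 24.4 at stage 9 and no call at stage 10.5. A site at 10.6 kb gave 13.6 and 14.3 at stages 8 and 9, and stage 8 peaks at −4.08 kb (10.3), 8.84 kb (9.21) and 14.3 kb (16.6) had no later partner. Sox3 peaks at −0.34 kb (11.9) and 6.96 kb (11.2) were called at stage 10.5 alone.

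**Figure D2:**
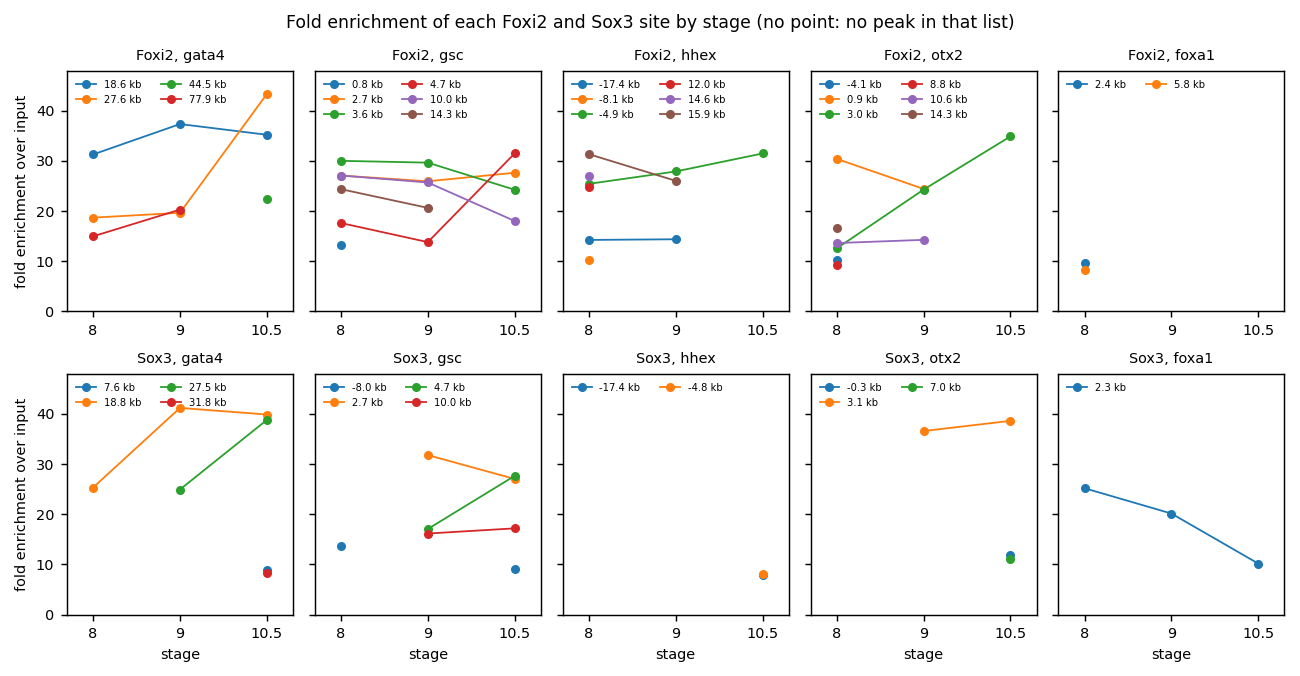
Fold enrichment over input (y axis) of every Foxi2 (top) and Sox3 (bottom) site near the 5 genes at stages 8, 9 and 10.5 (x axis); each colour is 1 site, named by its distance from the gene's lower-coordinate bound, and a missing point means no peak in that list. The Foxi2 sites at 27.6 kb of gata4 and 3.0 kb of otx2 have their highest values at stage 10.5, 43.3 and 34.9, whereas foxa1 has Foxi2 points at stage 8 alone. The median fold of the whole list differs between stages.

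Taking the stages together, the windows held 24 Foxi2 sites, of which 8 were called at all 3 stages, 6 at stages 8 and 9, 9 at stage 8 alone and 1 at stage 10.5 alone. The 14 Sox3 sites comprised 2 of all stages, 5 of stages 9 and 10.5, 1 of stages 8 and 10.5, and 6 of stage 10.5 alone. Shares of these stage patterns over all sites of the genome were not computed. The lists differ in length between stages, so the patterns are not read as particular to the members. At stage 10.5, 7 of 9 Foxi2 peaks overlapped a Sox3 peak, against 79.4% of the whole Foxi2 list, so the share was near the background. In these 7 pairs (3 at gsc, 2 at gata4 and 1 each at hhex and otx2) the summits of the factors lay 3 to 69 bp apart, with a median of 8 bp. The median over 4866 overlapping pairs of the genome was 27 bp.

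Ep300 divided the 5 genes by tissue. In the first experiment 17 endoderm and 4 ectoderm peaks lay in the windows, and each of the 5 genes had more endoderm than ectoderm peaks, against 23.2% of protein-coding genes. The second experiment gave 22 and 3 in wild-type, again with more endoderm peaks at 5 of 5 genes (background 24.4%). An endoderm peak was present at all 5 genes in both experiments, against 30.8% of genes in the first and 31.7% in the second. An ectoderm peak was present at gata4 and otx2 and at none of foxa1, hhex and gsc, which is 2 of 5 against 20.7% in the first and 19.6% in the second experiment. When both lists of the first experiment were limited to their 5840 strongest peaks, 9 endoderm and 4 ectoderm peaks remained in the windows. At otx2 the endoderm peaks of ranks 6976 and 7361 then dropped out. That left its endoderm peak of rank 911 beside both ectoderm peaks (ranks 972 and 809), so otx2 no longer had more endoderm peaks.

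The strongest endoderm Ep300 site of the 5 genes was the 27.6 kb site of gata4. It ranked 86 of 11690 in the first experiment (chr5:150641455-150642143, fold 11.4, −log10 p 98.3) and 41 of 11597 in the second (fold 29.6, −log10 p 384). In ectoderm the same site gave 3.66 and 17 (rank 3101 of 5840) in the first and 7.34 and 41.5 (rank 4094 of 5552) in the second. The first experiment also listed a weak ectoderm peak at the 19 kb site of gata4 (fold 3.40), which the second did not. At otx2 the ectoderm peaks at 3.3 kb and 7.5 kb ranked 1056 and 796 of 5552 in the second experiment, and the site at 3 kb was the 1 otx2 site called in both tissues in both experiments. The 7.5 kb peak was stronger in ectoderm (fold 14.9, −log10 p 144) than in the second endoderm list (6.77 and 44.0), and the first experiment listed it in ectoderm alone (5.38). It lies on a Sox3 peak and on no Foxi2 peak of any stage. Both genes with ectoderm Ep300 had such a site with Foxi2 at all stages, Sox3 at stages 9 and 10.5, and Ep300 in both tissues. These factor calls were not particular to them. The gsc sites at 2.7, 4.7 and 10 kb had the same Foxi2 and Sox3 calls and no ectoderm Ep300 peak.

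The highest endoderm Ep300 ranks near the remaining genes were 285 at otx2, 457 at gsc, 704 at hhex and 2579 at foxa1 in the second experiment. Those of the first experiment were 876 for a gsc peak at 2.74 kb (fold 6.96), 1315 for an hhex peak at 2.93 kb (fold 5.84), 911 for the otx2 site at 3 kb (fold 6.37) and 3780 for a foxa1 peak at 2.36 kb (fold 4.39), so foxa1 had the lowest top rank of the members in both. Of the 17 first-experiment endoderm peaks, 16 overlapped a peak of the second, and of 22 second-experiment peaks 14 overlapped a peak of the first. The same shares over the whole lists were not computed, so these counts are not read as particular to the members. In the second experiment 6 endoderm peaks each lay near gata4, hhex and otx2, a number reached by 1.36% of protein-coding genes, although the windows of these genes are also the longest of the 5.

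Peaks of Ep300 that overlapped both Foxi2 and Sox3 of stage 10.5 made up 3 of 4 ectoderm peaks (list 45.4%) and 5 of 17 endoderm peaks (list 16.7%) of the first experiment. In the second they were 2 of 3 ectoderm peaks (list 52.4%) and 5 of 22 endoderm peaks (list 20.3%). The 5 endoderm peaks lay at both sites of gata4 and numbered 1 each at gsc, hhex and otx2, while foxa1 had none. In the second experiment the gsc peak was broad and spanned the co-bound sites at 2.74 and 4.69 kb. Conversely, 13 of the 22 second-experiment endoderm peaks met neither factor at stage 10.5. A Foxi2 peak of stage 8 lay under 12 of these 22 peaks, and 7 of the 12 had no Foxi2 peak left at stage 10.5. No share over the whole endoderm list is given for these counts, so they are not read as particular to the members. Of all stage 8 Foxi2 peaks, 26.5% overlapped a stage 10.5 peak. That share counts Foxi2 peaks and not Ep300 peaks, so it is no background for the 7 of 12.

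To compare wild-type embryos with Foxi2 and Sox3 knockdown, each second-experiment wild-type peak was paired with the FS morphant peak that shared most bases with it. The morpholinos were injected on the animal side, and depletion of the factors in the dissected endoderm was not measured in these lists. The endoderm pairs therefore do not show Ep300 in cells known to lack both factors. In endoderm 18 of 22 member peaks had a partner, against 83.5% of the 11597 peaks of the list, so the members' share was near the background. In ectoderm all 3 member peaks had a partner, whereas 44.1% of the 5552 wild-type peaks did. When both lists were limited to peaks at or above their median −log10 p, 1 of 2 ectoderm and 16 of 17 endoderm member peaks had one. The remaining peaks had a partner that fell below the median of the FS morphant list. An Ep300 peak was listed near 2 of 5 genes in FS morphant ectoderm (background 15.2%) and near all 5 in FS morphant endoderm (background 31.5%), which were the same genes as in wild-type.

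In ectoderm the 3 peaks differed in strength of the FS morphant partner. The gata4 peak at 27.7 kb gave a fold of 7.34 in wild-type and 6.35 in FS morphants. The otx2 peak at 3.3 kb, on Foxi2 and Sox3, gave 12.5 and 5.99, a ratio of 0.481, and its −log10 p was 124 and 38.0. The otx2 peak at 7.5 kb, on Sox3 alone, gave 14.9 and 15.9, with −log10 p of 144 and 145. Over the 2451 ectoderm peaks with a partner the median ratio of FS morphant to wild-type fold was 1.06, with 5% of ratios below 0.528 and 5% above 1.85. The ratio of the 3.3 kb otx2 peak was exceeded by all but 3.26% of these pairs. The gata4 ratio of 0.866 was exceeded by all but 28.9%, and the 7.5 kb otx2 ratio of 1.07 lay near the middle. Only 44.1% of the 5552 wild-type ectoderm peaks entered these ratios, since a peak with no FS morphant partner has none. The shares therefore do not place the otx2 peak among all wild-type peaks.

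In endoderm the paired peaks were close in fold. At gata4 the values in wild-type and FS morphants were 18.0 and 19.6 at 18.7 kb, 29.6 and 30.9 at 27.5 kb, 9.57 and 12.5 at 29.1 kb, and 14.7 and 16.8 at 31.4 kb. At foxa1 the single peak gave 12.05 and 11.1. At hhex they were 12.2 and 14.6, 17.2 and 16.3, 19.6 and 22.2, 17.3 and 19.1, and 7.89 and 7.38, from the peak at −11.3 kb to that at 23.3 kb. These genes thus kept their strongest peaks in FS morphant endoderm. At gsc the values were 22.5 and 22.3 for the broad peak at 2.53 kb, which met 2 FS morphant peaks, 9.44 and 11.02 at 12.2 kb, and 17.1 and 19.3 at 14.3 kb. At otx2 they were 21.7 and 23.0 for the peak that contains the 3 kb site, 18.3 and 20.6 at 8.64 kb, 10.6 and 12.7 at 10.6 kb, 11.02 and 13.5 at 12.5 kb, and 8.00 and 8.53 at 14.1 kb. The ratios of the 18 pairs ran from 0.923 to 1.31 with a median of 1.12, beside a median of 1.03 over 9684 pairs of the list, of which 5% were below 0.808 and 5% above 1.31.

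The 4 endoderm peaks with no FS morphant partner were weak. They were the gata4 peaks at 50.3 kb (fold 5.81) and 82.0 kb (5.90), the hhex peak at −17.2 kb (5.36) and the otx2 peak at 7.49 kb (6.77), with ranks from 9253 to 11161 of 11597. Those of gata4 and hhex fell in the lowest 10% of the list by −log10 p, where 38.4% of peaks had a partner, and that of otx2 stood above it. The 1 FS morphant endoderm peak with no wild-type partner lay 21.6 kb from the lower bound of hhex (5.59).

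**Figure D3:**
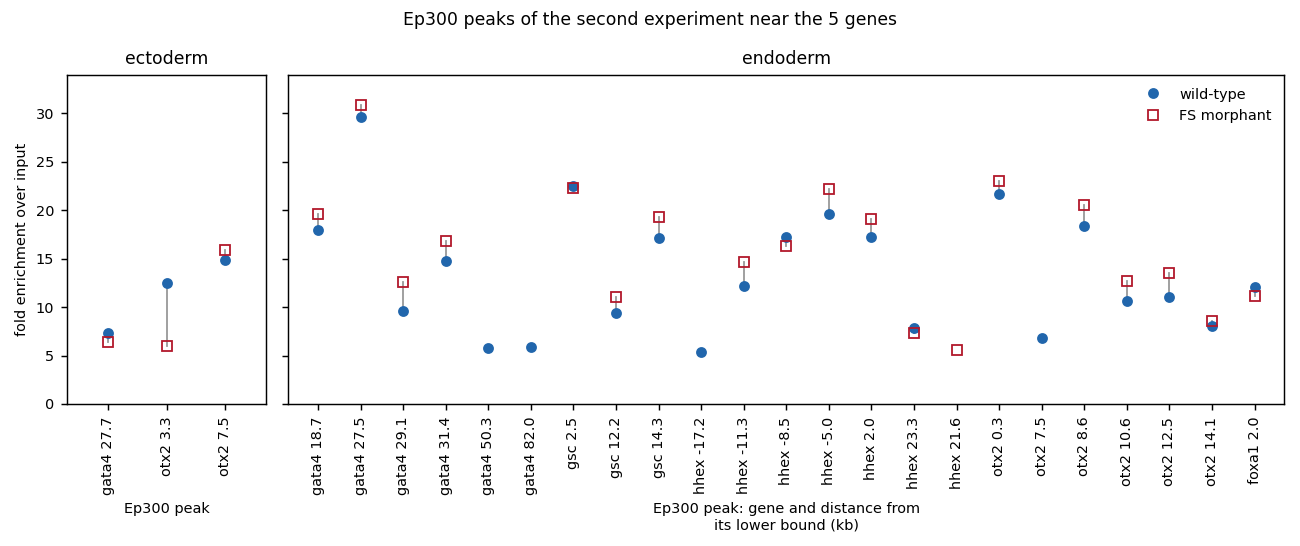
Fold enrichment over input (y axis) of each Ep300 peak of the second experiment near the 5 genes (x axis, named by gene and distance in kb from its lower-coordinate bound) in wild-type (filled circles) and FS morphants (open squares), in ectoderm (left) and endoderm (right); a missing symbol means no peak. The otx2 peak at 3.3 kb has the widest gap in ectoderm (12.5 and 5.99), and the 4 endoderm peaks without a square are all at 6.77 or below.

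H3K27me3 regions overlapped all 5 genes in both tissues. The H3K27me3 and H3K27ac regions were stitched by the authors within 12 kb, so covered bases can include gaps without the mark. A region lay in each window, which alone says little since 88.0% of protein-coding genes in ectoderm and 85.1% in endoderm had one. The extent was larger than for most genes. In ectoderm the regions covered 29.6% of the window of gata4, 28.5% of foxa1, 47.6% of hhex, 59.1% of gsc and 72.8% of otx2, beside a median of 6.97% over protein-coding genes. In endoderm the shares were 43.8%, 38.7%, 59.7%, 59.3% and 72.3% in the same order, beside a median of 4.84%. The bounds of gsc, otx2 and foxa1 were covered from end to end by stitched regions in both tissues, and those of hhex in endoderm. In ectoderm 91.7% of hhex was covered. Of gata4, 37.0% was covered in ectoderm and 60.1% in endoderm.

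The rank of these regions differed between the tissue lists. In ectoderm the highest-ranked region was number 68 at hhex, 98 at otx2, 161 at gata4, 165 at foxa1 and 260 at gsc, of 29268. The authors' ranking calls the first 243 regions exceptional by their signal, so 4 of 5 genes had a region above the cutoff and gsc stood just outside it, against 1.86% of protein-coding genes. In endoderm the ranks were 235, 310, 357, 456 and 588 for the same genes in the same order, of 27207, and with a cutoff after rank 127 no member passed it (background 1.20%). The rank of every member was thus higher in ectoderm, while the lengths covered did not follow that order. At gata4, for example, the main region was 24485 bp long in ectoderm and 39779 bp in endoderm, and at otx2 34127 and 33900 bp.

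In ectoderm, H3K27ac was sparse near the 5 genes apart from hhex. A region lay within 20 kb of gata4, hhex and otx2 (3 of 5, background 76.5%) and none near gsc or foxa1. At gata4 it was a 260 bp region of rank 13903. At hhex a 15151 bp region of rank 2834 lay at least 9929 bp below the gene. It covered 19.7% of the window, beside a median of 4.74% over protein-coding genes. At otx2 the window reached 308 bases into a region of 48757 bp and rank 1105, which passed the super-enhancer (SE) cutoff after rank 1156, and this was the 1 member with a region above the cutoff (background 15.7%). None of these regions met an ectoderm Ep300 peak inside the windows. Beyond its window, the otx2 region did overlap ectoderm Ep300 peaks of both experiments. It also overlapped Foxi2 peaks of stages 8, 9 and 10.5 and Sox3 peaks of stages 9 and 10.5.

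In endoderm all 5 genes had an H3K27ac region (background 73.6%), and none of the 5 had a region above the SE cutoff (background 8.13%). At gata4, regions of 30255 bp (rank 1290) and 14104 bp (rank 3269) covered 41.8% of the window, and the first held both co-bound sites. At hhex a region of 15526 bp (rank 2972) covered 98.7% of the gene. At foxa1 a 3451 bp region (rank 6024) covered 82.8% of the gene, and a 32601 bp region (rank 1296) began 14579 bp above it. At gsc and otx2 the regions were 301 and 313 bp long and ranked 12783 and 13578 of 17263. Broad endoderm regions thus lay on gata4 and hhex, and at foxa1 beyond the gene. That foxa1 region also met an ectoderm H3K27ac region outside the window. The 2 organizer genes had short regions. The signal column of the endoderm table is headed with the name of an animal-pole library, so ranks are read with that limit.

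**Figure D4:**
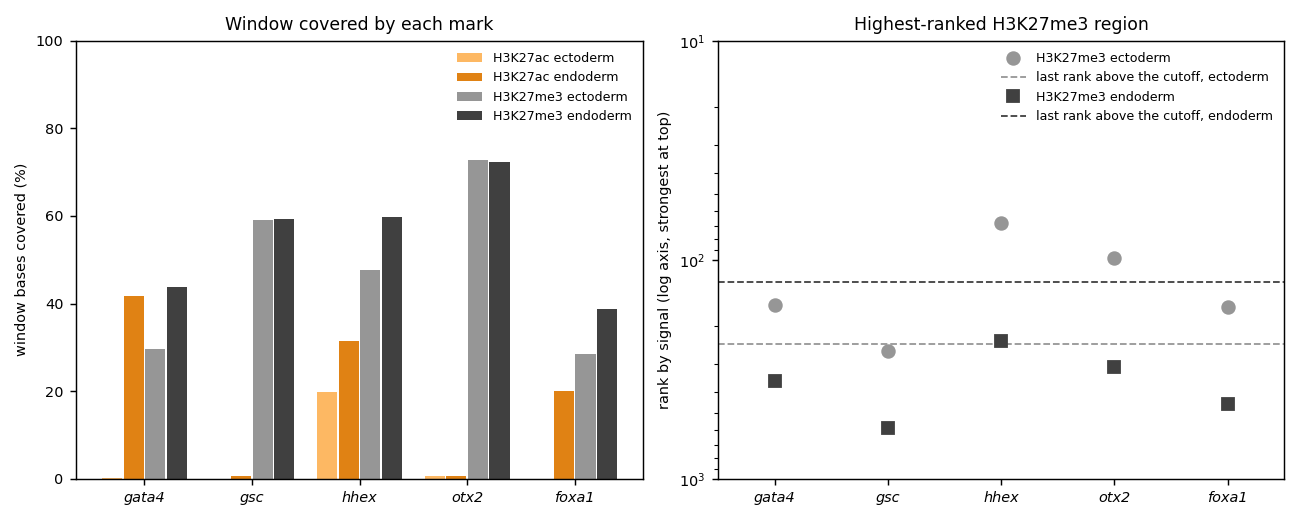
Left, percent of each 20 kb window covered by stitched H3K27ac and H3K27me3 regions in ectoderm and endoderm (bars). Right, rank of the highest-ranked H3K27me3 region of each gene in both tissues on a log axis with the strongest at the top; dashed lines mark the last rank above the cutoff, 243 in ectoderm and 127 in endoderm. Ectoderm ranks run from 68 to 260 and endoderm ranks from 235 to 588.

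Ep300 peaks near the 5 genes lay mostly inside H3K27me3 regions of their own tissue. The regions are stitched, so a peak inside a region can lie in a gap without the mark. In ectoderm this held for 4 of 4 peaks of the first experiment (list 29.5%) and 3 of 3 of the second (list 24.1%). In endoderm it held for 16 of 17 peaks (list 47.5%) and 18 of 22 peaks (list 37.9%). For H3K27ac the shares were 0 of 4 (list 76.0%) and 0 of 3 (list 82.8%) in ectoderm, and 8 of 17 (list 52.8%) and 10 of 22 (list 58.2%) in endoderm. The peaks of 1 window often lie in 1 long region, so they are not independent of each other. Whether both marks sit on the same cells or on different cells of the dissected tissue was not tested.

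Other regulators of the same territories were counted in the same way. Of 11 further genes of the endoderm network, 11 had an endoderm Ep300 peak in each experiment, and more endoderm than ectoderm peaks were found at 10 in the first and 11 in the second. Of these, sox17a, sox17b.1, mix1, gata5, gata6 and foxa4 also served as endoderm markers above, so these counts are not separate from the check of tissue labels. An H3K27me3 region above the cutoff lay near 5 of the 11 in ectoderm and 0 in endoderm, and an H3K27ac region above the SE cutoff near 0 in ectoderm and 9 in endoderm, where the 5 members had none. The windows of sox17a, sox17b.1 and sox17b.2 overlap, as do those of mix1 and mixer, so some regions were counted more than once. Of 12 organizer genes 11 were found in the annotation, and 9 of these had an endoderm Ep300 peak in each experiment, with more endoderm than ectoderm peaks at 8 and 9. An H3K27me3 region above the cutoff lay near 3 of these 11 in ectoderm (lhx1, fst and otx1) and 0 in endoderm, and an H3K27ac region above the cutoff near 2 in each tissue. Over the 11 endoderm network genes the wild-type and FS morphant endoderm lists held 67 and 63 Ep300 peaks, and over the 11 organizer genes 34 and 37. The ectoderm lists held 12 and 10, and 4 and 5. The windows of sia1 and sia2 overlap, so the organizer counts also hold some regions more than once.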

How the data were processed

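The study mapped Foxi2, Sox3, Ep300, H3K27ac and H3K27me3 by ChIP-seq in X. tropicalis embryos (31 samples with inputs, 16 lists). Reads were aligned by the authors to genome V10.0 with Bowtie 2, and duplicates were removed. The version is given as v2.4.1 in the methods and as 2.2.7 in the submitters' processing notes. Peaks were called against input with MACS2 at p 0.001, and narrow peaks of replicates, where made, were selected by IDR at 0.05. For the H3K27me3 regions the methods do not state how replicates were combined. The deposited peak lists hold a score scaled from the IDR (not used here), a fold enrichment ratio over input, and −log10 p and −log10 q values by the authors, of which the q values were not used. The 4 H3K27ac and H3K27me3 lists hold regions stitched within 12 kb and ranked by the authors with ROSE on ChIP signal, and the signal itself is deposited for H3K27ac alone. The extraction notes in the labels name an anti-VegT antibody for every sample and the cell-line label of the FS morphants reads wild-type; the titles were followed. Read depth is not part of these lists, so peak numbers are not corrected for it.

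Gene bounds were matched by symbol to the RefSeq table of UCB_Xtro_10.0. Regions sharing at least 1 base with the bounds plus 20 kb on each side were taken with Python 3.11.15, pandas 2.3.3 and numpy 2.4.6, and overlaps between lists also needed 1 base. Backgrounds are shares of 21749 protein-coding genes on the 10 chromosomes with the same window, or of the whole list, and window medians over genes stand in for a share of chromosome length. The interval functions were tested on simulated data. Named are the 5 members, every Foxi2 and Sox3 peak, every wild-type Ep300 peak of the second experiment with its FS morphant partner, the strongest peak of each other list, and gene lists by count. Members and lists were chosen with earlier results of these data known. No test was made, since each condition is 1 list. Alternatives were flanks of 10 kb, 50 kb and none, a reciprocal overlap of 50%, the stronger part of each list, lists of equal length, the second Ep300 experiment and regions above the cutoff. No genome sequence or strand was used here, so no motifs, exons or start sites are given.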

Additional observations from a re-analysis of the deposited data

Results flagged for a closer look

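At 2 Ep300 sites the FS morphant value stood below the wild-type value in ectoderm and above it in endoderm. At the otx2 site at 3.28 kb the ratio of FS morphant to wild-type fold was 0.481 in ectoderm and 1.06 in endoderm. At the gata4 site at 27.72 kb the ratios were 0.866 and 1.04. Of the ectoderm pairs of the whole list, 28.9% had a ratio below 0.866 and 5% one below 0.528, so the gata4 value was an ordinary one. The otx2 site at 7.46 kb went the other way, with a ratio of 1.07 in ectoderm and no FS morphant partner in endoderm. Each ratio compares 1 list with 1 list, and no test was made of whether the tissues differ. The endoderm peak at otx2 is broader and also contains other sites.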

How the results depend on the processing

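Of 42 recomputed values, 25 stayed within 1.5 times the reported one and 17 moved by more. Without flanks the windows held 80 of the 165 regions, 8 of 9 wild-type endoderm Ep300 peaks had an FS morphant partner, endoderm exceeded ectoderm Ep300 by 6 peaks in place of 13, and H3K27ac in endoderm covered 49.8% in place of 24.0%. With 50 kb each side, 5 of 6 ectoderm peaks had a partner, and the cover was 25.7% for H3K27me3 in ectoderm (reported 43.9%) and 32.1% in endoderm (reported 52.7%). H3K27ac cover in ectoderm, 3.65% at 20 kb, was 0.174% at 10 kb, 11.8% at 50 kb, 0.285% with no flank and 0.106% for regions above the cutoff. For such regions alone, cover in endoderm was 0% for H3K27ac and 0% for H3K27me3, so the order of the tissues turned for both marks (0.106% and 32.6% in ectoderm). In the stronger part of each list, 1 of 2 ectoderm peaks had a partner, since the FS morphant otx2 peak at 3.3 kb is under its list's median, against 16 of 17 in endoderm, which turns the order of 3 of 3 and 18 of 22, and the endoderm excess was 6. It was 5 with lists of equal length. With a reciprocal overlap of 50%, 4 of 21 Ep300 peaks of the first experiment, in place of 8, met both factors. No paired analysis was possible because each condition is 1 list, with no separate list for each replicate library. For the same reason no replicate could be left out.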
